A study of Homo sapiens with 4 samples.

Results

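The clustered protocadherin genes of chromosome 5 were examined in U87MG cells, an established human glioblastoma (GBM) line, with and without the fungal metabolite chaetocin. Members were the protein-coding genes whose symbols begin with PCDHA, PCDHB or PCDHG. The GENCODE 29 annotation holds 53 such genes, and the identifiers of 51 of them were found among the 57905 identifiers in the deposited count files: 15 of 15 in the alpha cluster, 15 of 16 in the beta cluster and 21 of 22 in the gamma cluster. The identifiers of *PCDHB16* and *PCDHGB5* were not matched, and their expression was not analysed here, although both enter the descriptions of sequence. The study compared gene expression between untreated cells and cells given 50 nM chaetocin for 24 h, with 2 samples in each group. All 4 samples came from wild type U87MG cells at the same stated passage range. Chaetocin was dissolved in DMSO whereas control cells received nothing, so the drug and its solvent cannot be told apart. Nothing in the labels says that the samples of a group were separate cultures, so the p-values given here measure the spread between these samples, which may be technical.

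Clustered protocadherins are cell-surface adhesion proteins of the cadherin superfamily, known mainly from neurons, where combinations of isoforms give single cells a surface identity used in self-recognition. Each alpha and gamma gene has its own promoter and a large variable first exon, which encodes the extracellular, transmembrane and proximal cytoplasmic parts and is spliced to constant 3′ exons that all genes of the cluster share. The beta genes have no constant exons and are each encoded by a single large exon. In neurons most isoforms are chosen stochastically, by promoter DNA methylation and by looping between promoters and enhancers held by CTCF and cohesin, while the C-type genes at the 3′ end of the alpha and gamma clusters are expressed more uniformly. Chaetocin is known as an inhibitor of histone H3 lysine methyltransferases of the SUV39H1 type, and the paper calls it unspecific. The clusters are known targets of the H3K9 methyltransferase SETDB1. The paper reports unchanged H3K9 trimethylation in chaetocin-treated cells, at doses and a time that include those used for sequencing. It attributes the sensitization to apoptosis to reactive oxygen species and not to SUV39H1 inhibition. It proposes that inhibited thioredoxin reductase might be their source. H3K9 methylation at the clusters was not tested here.

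Poly(A)-selected RNA was sequenced, with totals of 25918137 and 30351416 counts for control and of 21241984 and 32590479 counts for chaetocin. Levels are given as CPM (read counts scaled to a common library size) after TMM scaling, and 3 reads, taken as the limit of what a sample can show, correspond to 0.0844 to 0.138 CPM on this scale. Genes were tested with edgeR's quasi-likelihood test on 16416 genes that passed a filter on low counts, with Benjamini-Hochberg adjustment over all of them. A gene was called changed at an adjusted p under 0.05. The chaetocin samples differed from each other more than the control samples did, with a chi-square per gene of 60.8 against 21.7. With bulk RNA, fewer cells that express a gene and less RNA of it per cell cannot be told apart.

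The constant exons matter for what the counts can say, since reads from them belong to no single gene. In the annotation (GRCh38) all 15 alpha genes share exons of 59 and 89 bases and the 2718 bases of a last exon at chr5:141009627-141012344. Its annotated ends were identical in 14 of them, and *PCDHA1* ends at 141012347. All 22 gamma genes share exons of 59 and 89 bases and the 2033 bases of a last exon at chr5:141510947-141512979. Its annotated ends were identical in 21 of them, and *PCDHGA1* ends at 141512981. Junctions are printed here for the genes on which the results turn, each with the last 25 bases of the variable exon in lower case and the first 25 bases of the constant exon in capitals (GENCODE 29 transcripts, plus strand, 5′ to 3′).
PCDHGA4: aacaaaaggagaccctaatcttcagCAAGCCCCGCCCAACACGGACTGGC
PCDHGC3: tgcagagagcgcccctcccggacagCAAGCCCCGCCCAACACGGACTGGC
PCDHGC4: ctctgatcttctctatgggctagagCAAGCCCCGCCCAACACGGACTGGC
PCDHGC5: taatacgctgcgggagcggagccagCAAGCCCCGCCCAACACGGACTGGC
PCDHA10: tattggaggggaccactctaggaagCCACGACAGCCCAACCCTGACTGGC
PCDHAC2: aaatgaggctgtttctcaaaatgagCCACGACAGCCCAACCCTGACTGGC
The capitals were identical in all 22 gamma genes and in all 15 alpha genes, whereas every variable part differed from every other. Of all 50-base windows of the variable exons, a median of 91.6% per gamma gene and 90.1% per alpha gene occurred in no other gene in the files, against 40.6% to 54.7% and 31.1% to 52.3% of the windows of whole gamma and alpha transcripts. In *PCDHGC3*, *PCDHGC4* and *PCDHGC5*, 100% of the variable-exon windows were unique. How reads from the shared exons were counted is not given in the sources used here, but alpha genes with 0 reads in all 4 samples lay beside *PCDHAC2* at up to 65 reads, so shared-exon reads were not credited to every gene of the cluster.

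The gamma cluster was the most abundant of the 3 clusters in U87MG cells, and its summed level with chaetocin was about 54.5% of control. The sum over its 21 genes was 114 and 110 CPM in the control samples and 52.5 and 69.4 CPM in the chaetocin samples (112 ± 2.31 against 61.0 ± 11.9 CPM, mean ± SD, n = 2 each), a log2 ratio of -0.88. The beta cluster summed to 52.7 and 50.0 CPM in control and to 33.4 and 45.2 CPM with chaetocin, a log2 ratio of -0.39 or 76.5% of control. In both clusters the chaetocin samples lay below both control samples. The alpha cluster was low in every sample, with sums of 2.50 and 3.83 CPM in control against 1.84 and 3.91 CPM with chaetocin, and its groups overlapped. Its log2 ratio of -0.14 became 0.04 when libraries were scaled by their totals only, a scaling that moved the median of all genes to 0.17. Under that scaling the gamma and beta ratios were -0.71 and -0.22, before that shift is taken off. With 1 sample left out, the log2 ratio ran from -1.09 to -0.69 for gamma, -0.62 to -0.18 for beta and -0.78 to 0.31 for alpha.

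**Figure D1:**
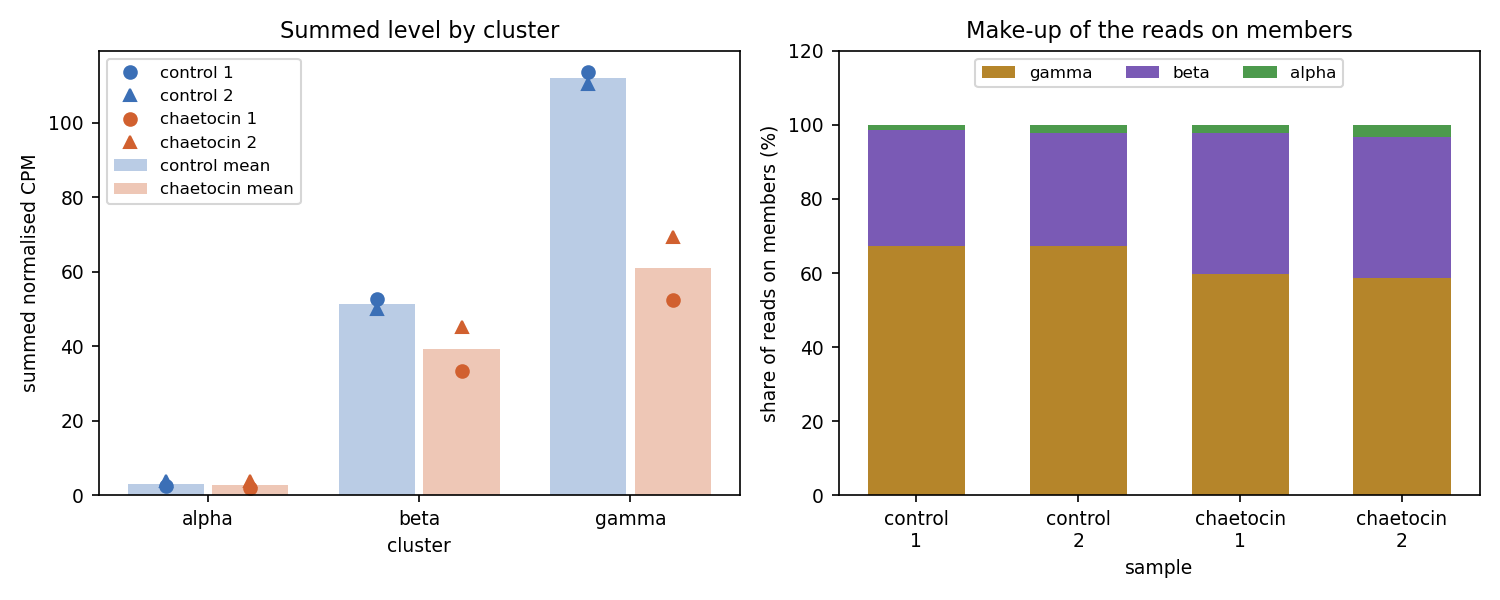
Left, summed CPM of the alpha, beta and gamma clusters, with a point for each sample and a bar for the group mean (n = 2). Right, percent of all member reads held by each cluster in each sample, stacked to the whole, with gamma at 67.3% and 67.2% in control and 59.9% and 58.6% with chaetocin. Gamma sums were 114 and 110 CPM in control and 52.5 and 69.4 CPM with chaetocin, beta sums were 50.0 CPM or more in control and 45.2 CPM or less with chaetocin, and the alpha groups overlapped.

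The make-up of the protocadherin reads was compared as well. Gamma genes held 67.3% and 67.2% of all member reads in control and 59.9% and 58.6% with chaetocin. Beta genes held 31.2% and 30.5% against 38.0% and 38.1%. The replicates of a group lay close together and the groups were apart for both clusters, with 2 samples a group and no test.

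Of the 51 matched genes, 33 passed the filter on low counts: 3 alpha, 14 beta and 16 gamma genes. A gene can pass through the group in which it is high, so counts over these 33 do not stand for the whole family. Of them, 2 genes were called lower with chaetocin, *PCDHGC3* and *PCDHGC5*, against 0.743% of all genes tested, and 0 were called higher, against 1.11% of all genes. At an unadjusted p under 0.05 from edgeR, 8 of the 33 were lower, where the share among all genes was 9.43%, and 0 were higher, where it was 10.9%. The log2 fold change was below 0 in 26 and above 0 in 7 members, with a median of -0.58 against 0.01 over all genes tested. Of all 16416 genes tested, 8059 were below 0 and 8357 above 0. Both chaetocin samples lay below both control samples in 18 of the 33, against 26.0% of all genes tested, and above them in 1, *PCDHGC4*, against 26.8%. The 95% interval of the fold change included 0 in 25 members.

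**Figure D2:**
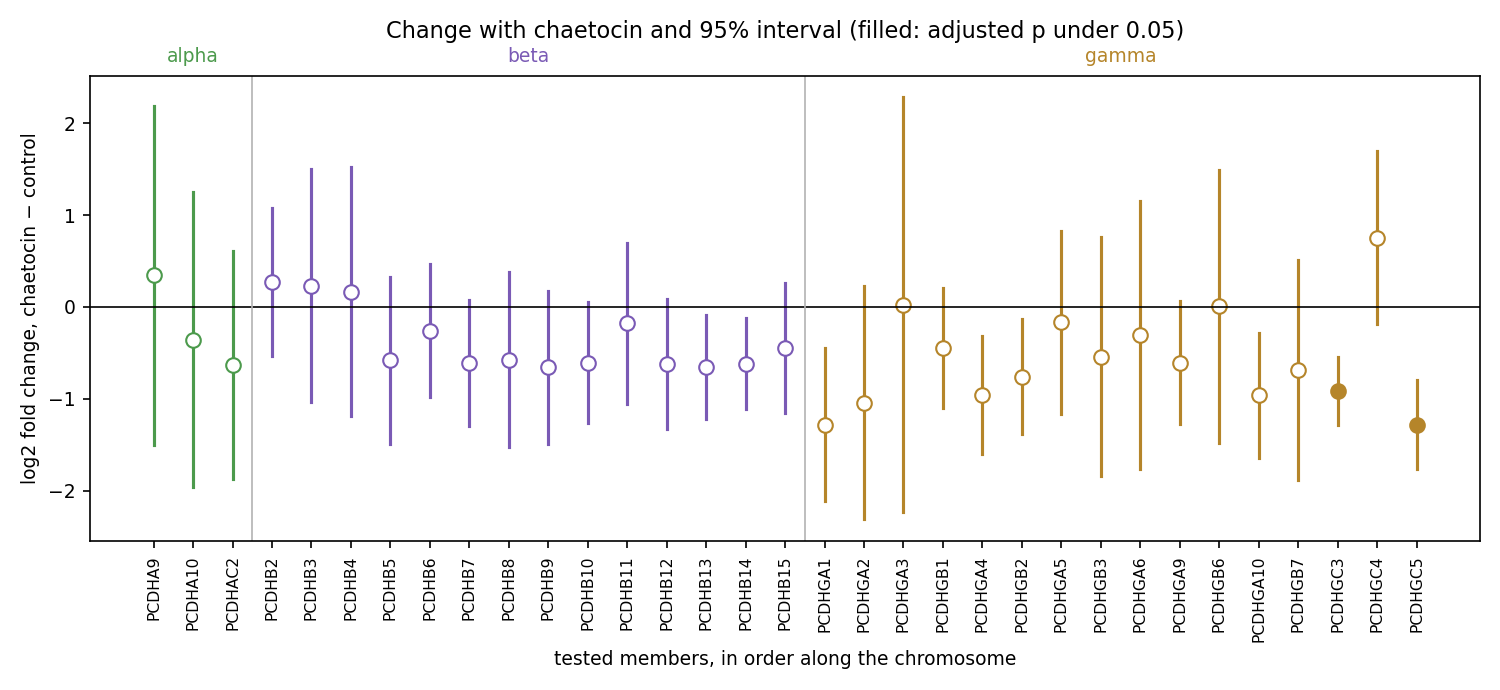
Log2 fold change (chaetocin against control, edgeR) of the 33 tested members in chromosomal order, with 95% intervals, and with filled marks for the called genes. Points lie below 0 for 26 members, and the called genes are *PCDHGC3* and *PCDHGC5* at the 3′ end of the gamma cluster, on either side of *PCDHGC4* at 0.76.

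*PCDHGC3* was the most abundant member and fell with chaetocin. This C-type gene (ENSG00000240184, chr5:141475947-141512979) is expressed outside neurons as well. Its level was 54.4 and 52.9 CPM in the control samples and 25.6 and 31.3 CPM in the chaetocin samples, from 1328, 1519, 558 and 1112 reads. The groups did not overlap, and the log2 fold change was -0.91 (SE 0.16, 95% interval -1.28 to -0.54, adjusted p = 0.0382 by edgeR). Per kilobase of exon that belongs to no other gene, it stood at 16.5 ± 0.338 CPM in control and 8.76 ± 1.23 CPM with chaetocin (SD, n = 2), above every other member in both groups.

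*PCDHGC5*, the last variable exon before the constant exons (ENSG00000240764, chr5:141489121-141512979), had the lowest fold change of all 33 tested members. Its level was 15.9 and 13.1 CPM in control and 6.11 and 5.80 CPM with chaetocin. The chaetocin samples lay close together and well under both controls, at a log2 fold change of -1.28 (SE 0.21, 95% interval -1.77 to -0.80, adjusted p = 0.0333 by edgeR). Both C-type calls were lost without control replicate 1, where the adjusted p from edgeR was 0.0799 for *PCDHGC3* and 0.0670 for *PCDHGC5* at log2 fold changes of the same sign. Under the alternatives that kept all samples, the adjusted p ranged up to 0.0483 and 0.0400.

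*PCDHGC4* (ENSG00000242419, chr5:141484997-141512979) lies between them, splices to the same constant exons and did not share their direction. It was low, at 0.70 and 1.01 CPM in control and 1.56 and 1.35 CPM with chaetocin, from 17, 29, 34 and 48 reads. Both chaetocin samples were above both controls, but the difference missed the threshold (log2 fold change 0.76, SE 0.41, 95% interval -0.19 to 1.70, adjusted p = 0.346 by edgeR). As a share of gamma reads it made up 0.613% and 0.915% in control and 2.97% and 1.95% with chaetocin, with 95% Wilson intervals of 0.383% to 0.980% and 0.638% to 1.31% against 2.14% to 4.13% and 1.47% to 2.57%. These intervals cover counting error only.

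The share of gamma reads held by *PCDHGC3* was near constant, at 47.9% in both control samples and 48.8% and 45.1% with chaetocin. *PCDHGC5* held 14% and 11.8% against 11.6% and 8.35%. Without *PCDHGC3*, the gamma sum was 59.2 and 57.5 CPM in control and 26.9 and 38.1 CPM with chaetocin, or 55.7% of control, so the lower gamma sum did not rest on its most abundant gene alone.

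**Figure D3:**
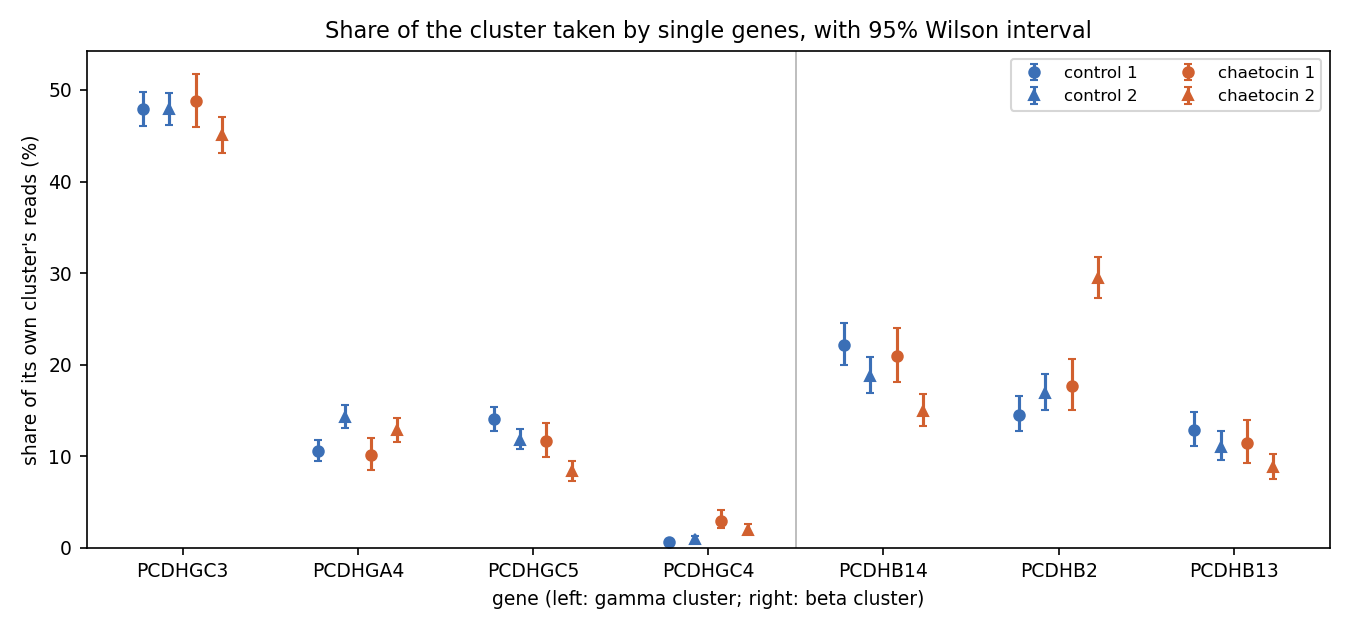
Share of the reads of its own cluster held by selected members in each sample, in percent, with 95% Wilson intervals. *PCDHGC3* stays between 45.1% and 48.8% of gamma reads, *PCDHGC4* lies higher in both chaetocin samples, and *PCDHB2* reaches 29.5% of beta reads in chaetocin replicate 2.

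The gamma A and B genes are the alternately chosen isoforms of the cluster, upstream of the C-type genes. The median log2 fold change was -0.78 over the 8 tested gamma A genes and -0.54 over the 5 tested gamma B genes, and none of them was called. *PCDHGA4* was the most abundant at 12 and 15.8 CPM in control and 5.33 and 8.89 CPM with chaetocin, without overlap (log2 fold change -0.95, SE 0.28, adjusted p = 0.114 by edgeR). *PCDHGA9* stood at 5.49 and 4.56 CPM against 2.62 and 3.91 CPM (-0.61, SE 0.29, adjusted p = 0.291 by edgeR). The groups of both genes were separate, but neither difference passed the threshold.

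Among the other gamma A and B genes, *PCDHGA1*, the most upstream gene of the cluster, had 4.88 and 4.0 CPM in control and 1.19 and 2.36 CPM with chaetocin. Its log2 fold change of -1.28 was as large as that of *PCDHGC5*, but with a wider error (SE 0.36, adjusted p = 0.105 by edgeR). *PCDHGA10*, at 3.69 and 3.58 CPM against 1.61 and 2.08 CPM, and *PCDHGB2*, at 4.34 and 3.97 CPM against 2.30 and 2.59 CPM, likewise had separate groups and an adjusted p by edgeR of 0.129 and 0.173. *PCDHGA4* was called by DESeq2 (adjusted p = 0.0431), and *PCDHGA1* and *PCDHGA4* were called without chaetocin replicate 2 (adjusted p by edgeR of 0.00963 and 0.00547), the chaetocin sample with the higher level of each. With no filter on low counts both were called as well (adjusted p by edgeR of 0.00561 and 0.00226).

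**Figure D4:**
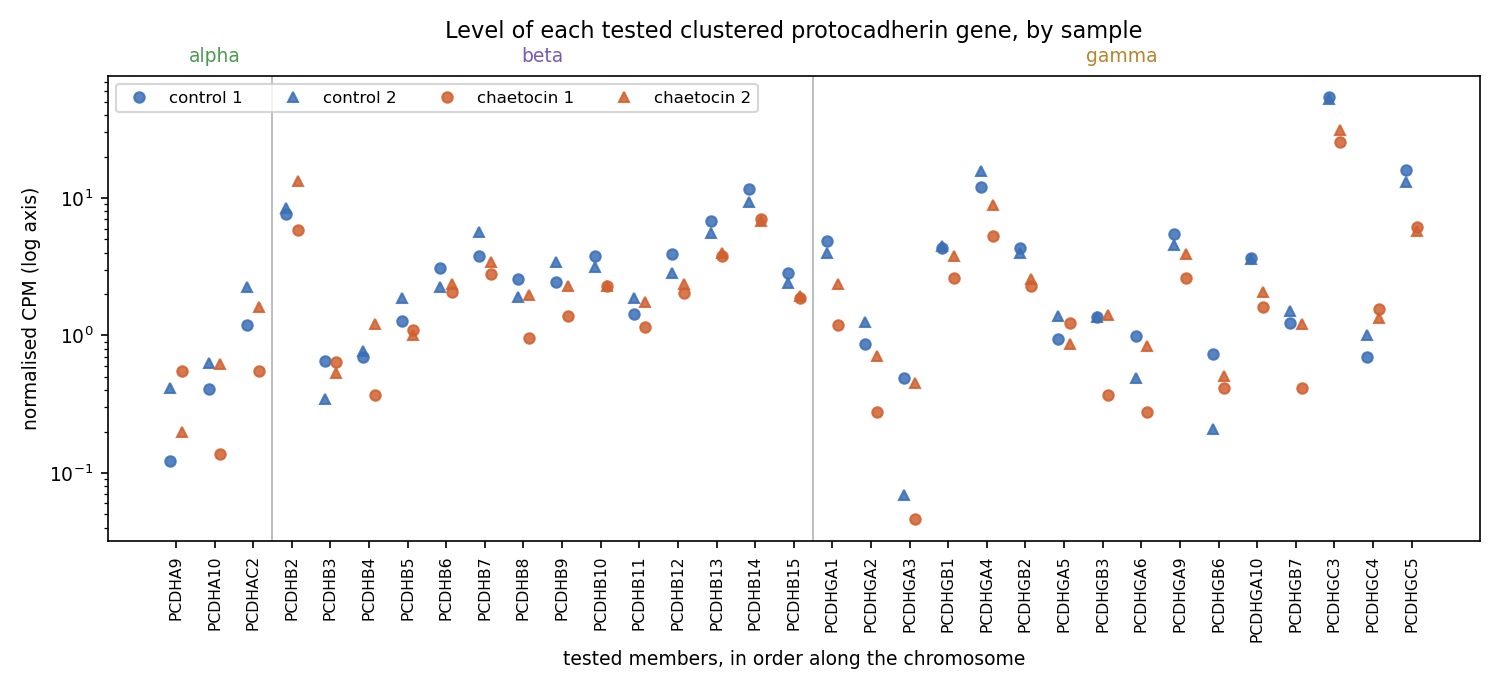
Level of each tested member in each of the 4 samples in chromosomal order, in CPM on a log axis. *PCDHGC3* stands highest at 25.6 to 54.4 CPM, and most of the 3 alpha genes' points lie under 1 CPM, as do those of *PCDHGA3*, the lowest in mean.

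The beta genes encode single-exon protocadherins with extracellular parts like those of the gamma proteins but with no constant cytoplasmic domain. Both chaetocin samples lay below both controls in 8 of the 14 tested genes, against 26.0% of all genes tested, and the groups overlapped in 6, with a median log2 fold change of -0.58 and 0 calls in either direction. An unadjusted p under 0.05 was reached by 2 of the 14, *PCDHB13* and *PCDHB14*, against 9.43% of all genes tested that were lower at this threshold. *PCDHB14* had 11.7 and 9.40 CPM in control and 6.99 and 6.76 CPM with chaetocin, a log2 fold change of -0.62 (SE 0.22, adjusted p = 0.167 by edgeR). *PCDHB13*, at 6.76 and 5.53 CPM against 3.81 and 3.97 CPM, differed by -0.66 (SE 0.25, adjusted p = 0.191 by edgeR). In both genes the chaetocin replicates lay close together.

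*PCDHB7* had 3.81 and 5.71 CPM in control and 2.80 and 3.41 CPM with chaetocin (log2 fold change -0.61, SE 0.30, adjusted p = 0.296 by edgeR). *PCDHB9*, with the lowest fold change of the cluster, had 2.46 and 3.45 CPM against 1.38 and 2.31 CPM (-0.66, SE 0.36, adjusted p = 0.350 by edgeR). Both had separate groups and intervals that included 0. The beta exons resemble each other, and the share of 50-base windows found in no other gene ran from 54.2% in *PCDHB8* to 98.3%, so the level of the less distinct genes depends on how ambiguous reads were counted and is uncertain.

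*PCDHB2* had the highest beta mean over all 4 samples, a rank that rested on chaetocin replicate 2, since *PCDHB14* was higher in the other 3 samples. It was the member whose chaetocin replicates stood furthest apart in CPM among the 33 tested. It had 7.66 and 8.46 CPM in control, 5.88 CPM in chaetocin replicate 1 and 13.3 CPM in chaetocin replicate 2, so the chaetocin samples lay on either side of the controls. The log2 fold change was 0.27 (SE 0.35, 95% interval -0.54 to 1.07, adjusted p = 0.722 by edgeR). Without chaetocin replicate 1 it was 0.73 and was called higher (adjusted p = 0.0226 by edgeR), and without chaetocin replicate 2 it turned to -0.46. Its share of beta reads was 14.6% and 16.9% in control, 17.6% in chaetocin replicate 1 and 29.5% in chaetocin replicate 2.

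Within the beta cluster the only fold changes above 0 belonged to *PCDHB2*, *PCDHB3* and *PCDHB4*, the most upstream of the tested genes, at 0.27, 0.23 and 0.17, none of them called. Spearman's rho between position and log2 fold change was -0.62 over 14 beta genes and 0.07 over 16 gamma genes, and between mean level and log2 fold change it was -0.40 and -0.54. These are descriptions over genes that share libraries and sequence, and they moved with single samples. The beta value was -0.21 without chaetocin replicate 2, the sample in which *PCDHB2* was high, and -0.41 without control replicate 1. The gamma value was 0.44 without chaetocin replicate 2 and -0.01 without chaetocin replicate 1.

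The alpha genes were low in these cells, and no difference between the groups was detectable at this depth. *PCDHAC2*, the C-type gene nearest the constant exons, was the most abundant, at 1.19 and 2.26 CPM in control and 0.551 and 1.60 CPM with chaetocin (log2 fold change -0.63, SE 0.54, adjusted p = 0.558 by edgeR). *PCDHA10* had 0.410 and 0.626 CPM against 0.138 and 0.619 CPM (-0.36, SE 0.70, adjusted p = 0.823 by edgeR). *PCDHA9* had 0.123 and 0.418 CPM against 0.551 and 0.197 CPM (0.34, SE 0.81, adjusted p = 0.853 by edgeR). The groups overlapped in all 3, the samples within each group differed by more than the group means did, and the value for *PCDHAC2* ran from -1.65 without chaetocin replicate 2 to -0.11 without control replicate 2.

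The other 18 matched members did not pass the filter: 12 alpha genes, *PCDHB1* and 5 gamma genes. *PCDHA4*, *PCDHA5*, *PCDHA6*, *PCDHA8* and *PCDHB1* had 0 reads in all 4 samples, which at a limit of 3 reads allows up to 0.138 CPM in the shallowest sample. The highest count of any of the 18 in any sample was 20 reads, and together they held 48 and 38 reads in control and 24 and 101 reads with chaetocin. *PCDHAC1*, the other alpha C-type gene, had 2 and 2 reads in control and 1 and 8 reads with chaetocin. The chaetocin samples lay on either side of the controls in that sum, with the most reads in chaetocin replicate 2.

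Many, but not all, promoters of the variable exons carry a conserved sequence element with the core CGCT. The 120 bases before the RefSeq start (GRCh38.p14, plus strand) are shown for a fallen gene and for its neighbour *PCDHGC4*, which was not called. They are also shown for the most abundant gamma A gene and the most upstream tested beta gene. Capitals mark CGCT or its reverse complement AGCG on the printed strand. Only these 4 bases were searched for, so a match does not identify the element.
PCDHGC3 at chr5:141475846-141475965: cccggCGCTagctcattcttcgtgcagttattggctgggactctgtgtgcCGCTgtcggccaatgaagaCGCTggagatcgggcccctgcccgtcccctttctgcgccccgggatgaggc
PCDHGC4 at chr5:141484910-141485029: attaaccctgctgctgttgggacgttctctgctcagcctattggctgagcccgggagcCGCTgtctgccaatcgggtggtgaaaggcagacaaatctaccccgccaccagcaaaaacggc
PCDHGA4 at chr5:141354901-141355020: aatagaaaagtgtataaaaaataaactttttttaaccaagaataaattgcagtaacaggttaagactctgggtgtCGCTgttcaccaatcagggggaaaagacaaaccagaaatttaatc
PCDHB2 at chr5:141094495-141094614: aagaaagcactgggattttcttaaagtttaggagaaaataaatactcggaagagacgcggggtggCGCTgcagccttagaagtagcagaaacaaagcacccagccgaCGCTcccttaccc
RefSeq promoters of 300 bases were matched for 47 members, *PCDHGC5* not among them. CGCT occurred on either strand in 46 of the 47 (97.9%) and in 70.0% of all 35116 promoters in the table. Between 100 and 30 bases before the start, a window chosen after the positions were seen, it occurred in 43 of the 47 (91.5%) and in 36.3% of all promoters. The median number of CpG was 7 over the member promoters and 14 over all promoters, but the matched C-type promoters lay above both, with 18 in *PCDHGC3*, 23 in the printed start of *PCDHGC4*, 27 in *PCDHAC1* and 15 in *PCDHAC2*. *PCDHGC3* and *PCDHGC4* both held a match in the window before the start. Whether a match bears on the levels was not tested.

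Genes that bear on the clusters were described by lists. Of 27 genes for factors known to act on the clusters (CTCF, cohesin, DNA and H3K9 methyltransferases, heterochromatin proteins and REST), all were tested and 0 were called in either direction, with a median log2 fold change of -0.02 against 0.01 over all genes. Of all genes tested 0.743% were called lower and 1.11% higher, so a list of this size can hold 0 calls without differing from them. *SETDB1*, which silences the clusters, had 26.2 and 26.1 CPM in control and 23.2 and 27.3 CPM with chaetocin (-0.05, SE 0.16). *CTCF* had 61.3 and 63.7 CPM against 68.9 and 74.5 CPM (0.20, SE 0.14). *SMCHD1*, a chromatin protein that represses the clusters, and *SUV39H1* differed by 0.06 and 0.10. None of the 4 passed the threshold, and the adjusted p by edgeR was 0.471 or more for each.

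The ends of that list were *TRIM28*, which recruits SETDB1, and *ATRX*, a chromatin remodeller of heterochromatin. *TRIM28* had 342 and 335 CPM in control and 487 and 750 CPM with chaetocin (0.87, SE 0.22, adjusted p = 0.0835 by edgeR). *ATRX* had 159 and 165 CPM against 118 and 121 CPM (-0.44, SE 0.14, adjusted p = 0.135 by edgeR). The groups did not overlap for either gene, in opposite directions. *TRIM28* was called higher by DESeq2 (adjusted p = 0.00516), with no filter (0.00025 by edgeR) and without chaetocin replicate 1 (8.65e-05) or replicate 2 (0.0347), and *ATRX* was called lower without chaetocin replicate 1 (0.0409) or replicate 2 (0.0443), so the count of 0 for this list depended on the fit. Of 20 tested genes for signalling and processing partners of the proteins, 4 lay above and 16 below 0, with a median of -0.17. Over all genes tested 8357 lay above and 8059 below 0. Among the 20 partners 1 was called lower, against 0.743% of all genes tested. This was *PRKCA*, the protein kinase C alpha gene, at 972 and 738 CPM in control and 431 and 386 CPM with chaetocin (-1.07, SE 0.20, adjusted p = 0.0412 by edgeR). That call was lost when 10 counts in every sample were required (adjusted p = 0.0519) and without control replicate 1 (0.140). The highest of this list was *AXIN1* at 0.24 (SE 0.19, adjusted p = 0.519 by edgeR). *ADAM10*, the protease that sheds gamma protocadherins, stood at 249 and 253 CPM against 149 and 162 CPM (-0.69, SE 0.15, adjusted p = 0.0559 by edgeR).

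The non-clustered protocadherins, which lie elsewhere in the genome or outside the tandem arrays, had a median log2 fold change of 0.18 over 7 tested genes, 4 above and 3 below 0, with 0 called. The shares called among all genes tested were 0.743% lower and 1.11% higher. *PCDH17* was the lowest at 57.9 and 57.7 CPM in control and 40.2 and 46.1 CPM with chaetocin (-0.42, SE 0.15, adjusted p = 0.169 by edgeR). *PCDH10* had 15.0 and 11.6 CPM against 20.8 and 32.1 CPM (1.00, SE 0.24, adjusted p = 0.0758 by edgeR). *PCDH12* was the highest at 2.42 (SE 0.85, adjusted p = 0.167 by edgeR), from 8, 1, 11 and 47 reads. It was called higher with no filter (adjusted p = 0.0203 by edgeR), without control replicate 1 (4.58, adjusted p = 0.0229) and without chaetocin replicate 1 (2.91, adjusted p = 0.0323), and it was 1.49 without control replicate 2 and 1.5 without chaetocin replicate 2, not called in either. *PCDH17* was called lower without chaetocin replicate 2 (0.0324). The family outside the clusters thus held values on both sides of 0, and the difference between the lists was not tested.

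Genes within 500000 bases of the clusters, clustered members and their pseudogenes aside, had a median log2 fold change of -0.02 over 26 tested genes, with 12 above and 14 below 0 and 0 called. Among all genes tested 0.743% were called lower and 1.11% higher. *PCDH1* and *PCDH12* are counted here as well as among the non-clustered protocadherins, and *PCDH12* at 2.42 was the highest of the neighbours, followed by *CD14* at 1.30 from 7, 11, 10 and 41 reads. *HBEGF*, a growth factor gene, was the lowest at 64.0 and 60.4 CPM in control and 45.3 and 22.7 CPM with chaetocin (-0.88, SE 0.29, adjusted p = 0.142 by edgeR). It was called lower by DESeq2 (adjusted p = 0.0319), with no filter (7.79e-05 by edgeR) and without chaetocin replicate 1 (2.48e-05). *DIAPH1*, the formin gene just 3′ of the gamma cluster, had 209 and 261 CPM against 181 and 174 CPM (-0.41, SE 0.16, adjusted p = 0.216 by edgeR), and *ARAP3* had 30.7 and 33.9 CPM against 25.4 and 22.3 CPM (-0.44, SE 0.16, adjusted p = 0.184 by edgeR). The groups of both genes were separate, but neither was called. *TAF7*, which lies between the beta and gamma clusters, had 128 and 123 CPM against 125 and 129 CPM, a log2 fold change of 0.02 with a 95% interval of -0.30 to 0.33.

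**Figure D5:**
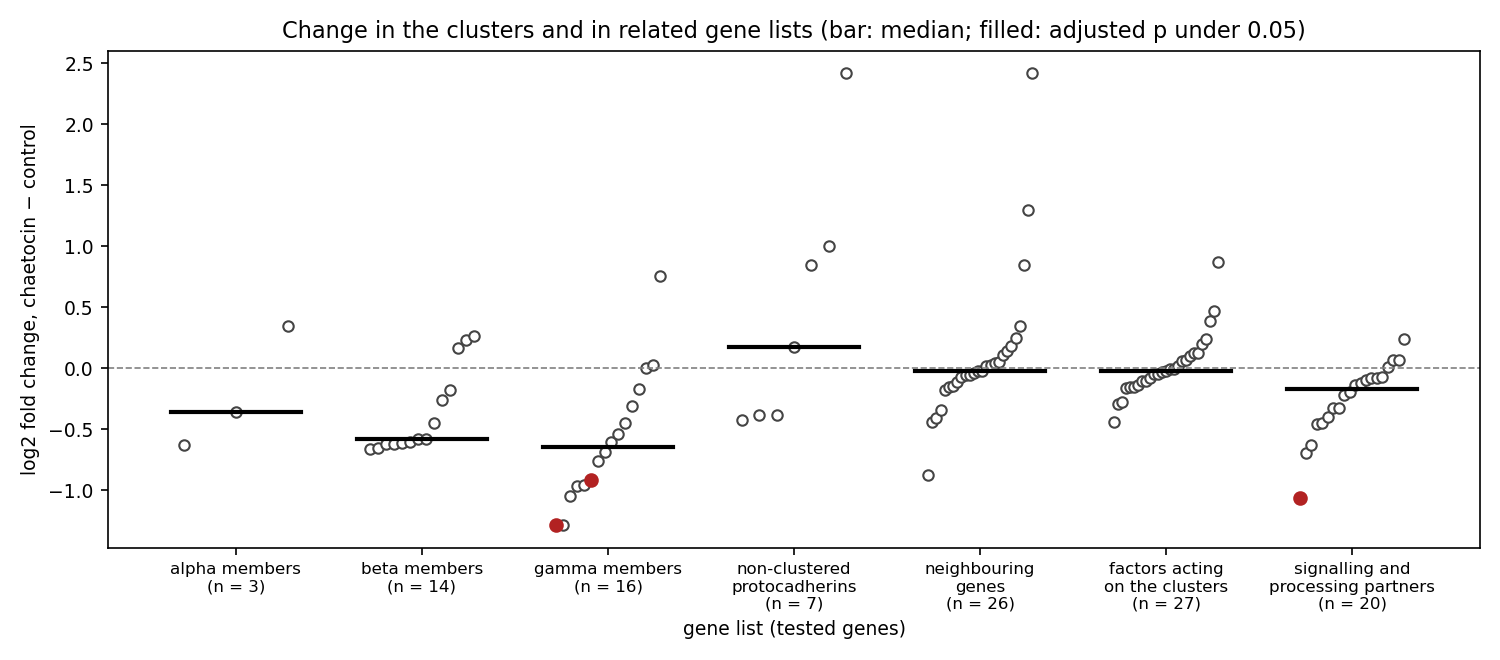
Log2 fold change (chaetocin against control, edgeR) of each tested gene in the alpha, beta and gamma clusters and in the comparison lists, with a bar at each median and filled points for called genes. The medians are -0.36, -0.58 and -0.65 for the alpha, beta and gamma clusters, -0.02 for the factors and for the neighbours, -0.17 for the partners and 0.18 for the non-clustered protocadherins.

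Markers of the labelled cell type were checked for this line. *VIM* and *CD44* stood at 797 CPM or more and *NES* at 25.1 to 44.7 CPM in every sample, whereas *OLIG2* had 39 to 65 reads, *SOX2* had 0 reads in control and 2 and 5 with chaetocin, *GFAP* had 10 to 25 reads and *AQP4* had 0 reads in all 4 samples. The astroglial list summed to 55.9 and 51.7 CPM in control and 26.7 and 25.6 CPM with chaetocin, mainly *SLC1A3*. This gene fell (log2 fold change -1.22, adjusted p = 0.0266 by edgeR), 1 called of 4 tested, against 0.743% of all genes tested called lower. Of the others *GFAP* was at -1.0, *SLC1A2* at 1.29 and *ALDH1L1* at 1.39, none of them called, and the median of the 4 was 0.15. The glioma and neural progenitor list summed to 5497 and 4793 CPM against 3222 and 1972 CPM, with 0 of 4 called. All 4 tested genes of that list lay below 0, with a median log2 fold change of -0.72. Of 5 tested neuronal markers 1 was called higher, *TUBB3*, against 1.11% of all genes tested. *SNAP25*, at 42.1 and 34.7 CPM in control and 28.95 and 11.1 CPM with chaetocin, had a log2 fold change of -0.95 and was not called. The list summed to 86.7 and 89.99 CPM in control and 74.7 and 82.5 CPM with chaetocin. The leukocyte list summed to 221 and 154 CPM in control and 174 and 99.1 CPM with chaetocin, nearly all of it from *CD74* (221 and 153 against 173 and 97.5 CPM, not called), with *CD3E* at 0 reads in all samples and *PTPRC*, called higher, at 0, 1, 15 and 27 reads. Endothelial markers summed to 0.86 and 1.29 CPM in control and 2.11 and 3.15 CPM with chaetocin, and epithelial markers to 2.38 and 1.95 CPM against 3.86 and 3.69 CPM. The chaetocin samples were above both controls in both lists, with fold changes above 0 in all 4 tested genes and 0 called. The part of these markers in the lower protocadherin levels was not tested.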

How the data were processed

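Two-group comparisons were made between control (n = 2) and chaetocin (n = 2) samples of U87MG cells, grouped by their labels. The authors deposited raw read counts per Ensembl gene identifier, one file per sample, with no coordinates. The submitters' processing notes name cutadapt, TopHat2, TopHat, SAMtools and the GRCh37 build, while the counting tool, its strand setting and its treatment of multiply mapping reads are not given in the sources used here. Symbols and coordinates were taken from GENCODE 29 on GRCh38 by identifier, for 52338 of the 57905 identifiers, and no coordinates were converted. Sequences came from GENCODE 29 transcripts and from RefSeq promoters.

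Counts were filtered with edgeR's filterByExpr (minimum count 10), scaled by TMM and tested with edgeR 4.0.16 (glmQLFit and glmQLFTest, two-sided, R 4.3.3) without a replicate block, with Benjamini-Hochberg adjustment over all 16416 genes. The biological coefficient of variation was 16.8%. The scripts were tested on simulated data, with changes set in genes above the median level. There 100% of 4-fold and 78% of 2-fold changes were called, and 17 of the 195 calls were of unchanged genes. Alternatives were DESeq2 1.42.0, RLE, upper-quartile or total-count scaling, other filters, protein-coding genes only, downsampled counts, a replicate block and leaving out each sample. Levels per kilobase used exon bases that belong to no other gene. Totals were 21241984 to 32590479 counts, and 3 reads came to 0.0844 to 0.138 CPM after TMM scaling.

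Members and lists were chosen with earlier results of these data known. Genes were named if called, if among the 4 highest in level or at either end of the fold changes of a cluster, if C-type, or, in other lists, if called or at either end, with *SETDB1*, *CTCF*, *SMCHD1* and *SUV39H1* added. The others named, among them *PCDHGA1*, *PCDHGA10*, *PCDHGB2*, *PCDHB3*, *PCDHB4*, *PCDHB8*, *PCDH10*, *ADAM10*, *TAF7*, *DIAPH1*, *ARAP3*, *CD14* and the markers, were chosen after their values were seen.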

Additional observations from a re-analysis of the deposited data

How the results depend on the processing

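Of the members, 2 were called lower in the reported fit, 4 with no filter on low counts, 5 with the replicate block, 8 at an unadjusted p and 0 to 4 when 1 sample was left out, where 0 to 1 were called higher. Over all genes 122 were called lower and 182 higher, against 759 and 787 with no filter, 1053 and 1036 under the replicate block, 80 and 114 where each sample needed 10 counts, 481 and 385 by DESeq2, and 1548 and 1791 at an unadjusted p. With 1 sample left out these counts ran from 97 to 1673 and from 215 to 1332, and where that left 1 sample in a group it was assumed to vary like the other group. The replicate numbers are shared by the labels only: deviations of same-numbered samples correlated at 0.123 over 16416 genes, there were 2 pairs, and the block raised the prior degrees of freedom from 6.29 to 41.5. With it *PCDHGA1*, *PCDHGA4*, *PCDHGA10* and *HBEGF* were called lower and *TRIM28* higher. With 1 sample left out, the log2 ratio of the summed CPM ran from -0.78 to 0.31 for alpha, -0.62 to -0.18 for beta and -1.09 to -0.69 for gamma, and the median log2 fold change from -1.65 to -0.0483, -0.60 to -0.38 and -1.22 to -0.39. *SETDB1* reversed to 0.0268 with upper-quartile scaling. Reversals with 1 sample left out were found for *SETDB1* (-0.18 to 0.0639), *SMCHD1* (-0.10 to 0.19), *PCDHA10* (-1.89 to 0.25), *PCDHA9* (-0.47 to 1.5), *PCDHB2* (-0.46 to 0.73) and *PCDHB18P* (-0.83 to 0.24). The cause was not tested. In the alpha cluster, whose tested genes rested on 3 to 65 reads a sample, low counts and the spread between replicates both limited the comparison.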

Other observations

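Pseudogenes of the clusters lie between the coding members and share much of their sequence, so reads could be exchanged with their neighbours. Of 5 in the files, 3 were tested, 0 were called, and all 3 had log2 fold changes below 0, with a median of -0.36. The shares called among all genes tested were 0.743% lower and 1.11% higher. *PCDHB17P* had 1.27 and 1.91 CPM in control and 1.38 and 0.929 CPM with chaetocin (-0.49, SE 0.41, adjusted p = 0.550 by edgeR). *PCDHB18P* had 0.738 and 0.418 CPM against 0.322 and 0.647 CPM (-0.19, SE 0.59, adjusted p = 0.894 by edgeR). The groups overlapped in both, and their levels lay below those of the abundant beta genes.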
